A study of Mus musculus with 35 samples.

Results

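The 10 genes described here are Nr4a1, Nr4a2, Nr4a3, Egr1, Egr2, Egr3, Nfkbia, Fos, Jun and Junb, taken by symbol from 52636 genes in a table of RNA sequencing counts. All 10 had enough reads to be tested among 10296 genes. They are immediate early genes, which a cell transcribes quickly after a stimulus without needing new protein. In T cells many of them answer the antigen receptor. NR4A proteins are orphan nuclear receptors, EGR proteins are zinc finger transcription factors, FOS and JUN proteins pair into the transcription factor AP-1, and Nfkbia encodes the inhibitor that holds NF-kB in the cytoplasm and is itself switched on by NF-kB.

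The RNA came from CD8 T cells sorted by flow cytometry from C57BL/6 mice, to compare the loss of Dot1l, which encodes a histone H3 methyltransferase, between T cell subsets. Each mouse line carried Lcre+/-, the WT controls included, together with Dot1Lfl/fl (KO), Dot1Lfl/wt (Het) or Dot1Lwt/wt (WT). The labels do not say which promoter drives the Cre. Each genotype was sampled in 3 subsets: thymus (CD8 single positive cells), naive spleen cells (CD44-, CD62L+) and memory spleen cells (CD44+, CD62L+). Of the 9 groups, 8 held 4 libraries and WT thymus held 3, which makes 35 libraries. Age and sex are not in the labels, and nothing in them tells whether the replicates of a group were different mice. Read from Xist and Y-linked counts, each group held both female and male libraries, so its libraries were not all from 1 mouse. Whether each library was a different mouse is not known. A p-value therefore covers the spread between these libraries, which may be partly technical.

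Libraries held 4809509 to 16879636 counts (median 10406516). Dot1l itself was not lower in KO libraries. It had 74.9 to 78.8 CPM (read counts scaled to a common library size) in KO thymus against 61.1 to 70.4 CPM in WT thymus, 54.0 to 57.1 CPM in KO naive against 47.2 to 51.6 CPM in WT naive, and 43.8 to 48.4 CPM in KO memory against 38.4 to 52.5 CPM in WT memory cells. These counts add up reads over the whole gene, and the labels do not say which exons the deletion removes, so they do not check the genotype, and KO, Het and WT below stand for libraries with that label. Some T cell transcripts had few reads: averaged over the 35 libraries, Cd3d had 2.02 CPM and Cd8a 8.72 CPM, beside 963 CPM for Lck. Cd69, an early activation gene, had a mean of 0.325 CPM. The cause was not tested, so levels are compared between groups for 1 gene at a time, not between genes.

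Markers of other cells were uneven within each list. Of 6 natural killer cell markers, Ncr1, Klrb1c, Klre1, Klra8 and Gzma each had 0 to 7 counts over all 35 libraries, while Eomes, which memory CD8 T cells are also known to express, averaged 109 CPM. Of 10 myeloid markers, S100a8 and S100a9 had 0 counts, Itgax reached 23.2 CPM and Csf1r 8.29 CPM. Of 4 CD4 T cell markers, Cd4 had 15 counts and Cd40lg 2 counts in all, and Zbtb7b reached 24.8 CPM. Of 12 B cell markers, Ighm averaged 148 CPM and Ms4a1 0.139 CPM, and the list summed to at most 509.6 CPM (a KO naive library). The 5 red cell markers summed to at most 83.2 CPM (a Het naive library).

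Promoters are shown for a receptor gene, a zinc finger gene and the inhibitor gene, as examples of 3 kinds of member that each differed between KO and WT libraries in at least 1 subset. The stretches run from 100 bases before an annotated start to 20 bases after it, are written 5′ to 3′ on the strand of the gene (RefSeq, GRCm38.p6), and lie at chr15:101266746-101266865 (plus strand), chr10:67537769-67537888 (plus strand) and chr12:55492628-55492747 (minus strand). Capitals mark motif matches.
Nr4a1: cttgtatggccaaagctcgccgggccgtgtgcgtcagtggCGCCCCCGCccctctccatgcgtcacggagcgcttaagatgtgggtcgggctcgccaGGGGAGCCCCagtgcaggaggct
Egr2: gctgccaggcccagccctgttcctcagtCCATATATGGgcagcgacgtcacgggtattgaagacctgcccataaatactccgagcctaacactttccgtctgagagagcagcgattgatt
Nfkbia: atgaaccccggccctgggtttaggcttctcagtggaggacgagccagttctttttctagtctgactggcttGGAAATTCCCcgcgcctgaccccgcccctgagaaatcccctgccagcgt
In Nr4a1 the capitals are an Egr site (GCGNGGGCG, here on the other strand) 60 to 52 bases before the start and a kappa B site, the NF-kB motif, that spans the start. In Egr2 they are a CArG box, the motif of serum response factor, 72 to 63 bases before the start. The start shown is 1 of 5 annotated for Egr2: 2 others lie near it and share this box, another has a CArG box with other letters, and the window of the most upstream start has none. In Nfkbia they are a kappa B site 29 to 20 bases before the start.

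Matches were searched on both strands in windows of 250 bases before to 50 after the start, in 12 windows of 8 members. The promoters of Egr1 and Egr3 were not analysed here. Among 32851 windows of all genes, 1.63% held a CArG box, 4.51% a kappa B site, 5.55% an Egr site, 5.2% an AP-1 site (TGACTCA or TGAGTCA), 1.79% a cAMP response element (TGACGTCA) and 1.51% the Nr4a monomer site NBRE (AAAGGTCA). Nr4a2 also held an Egr site and Fos a kappa B site, and the windows of Nr4a3, Jun and Junb held none of these letters. A match describes letters and does not show binding.

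**Figure D1:**
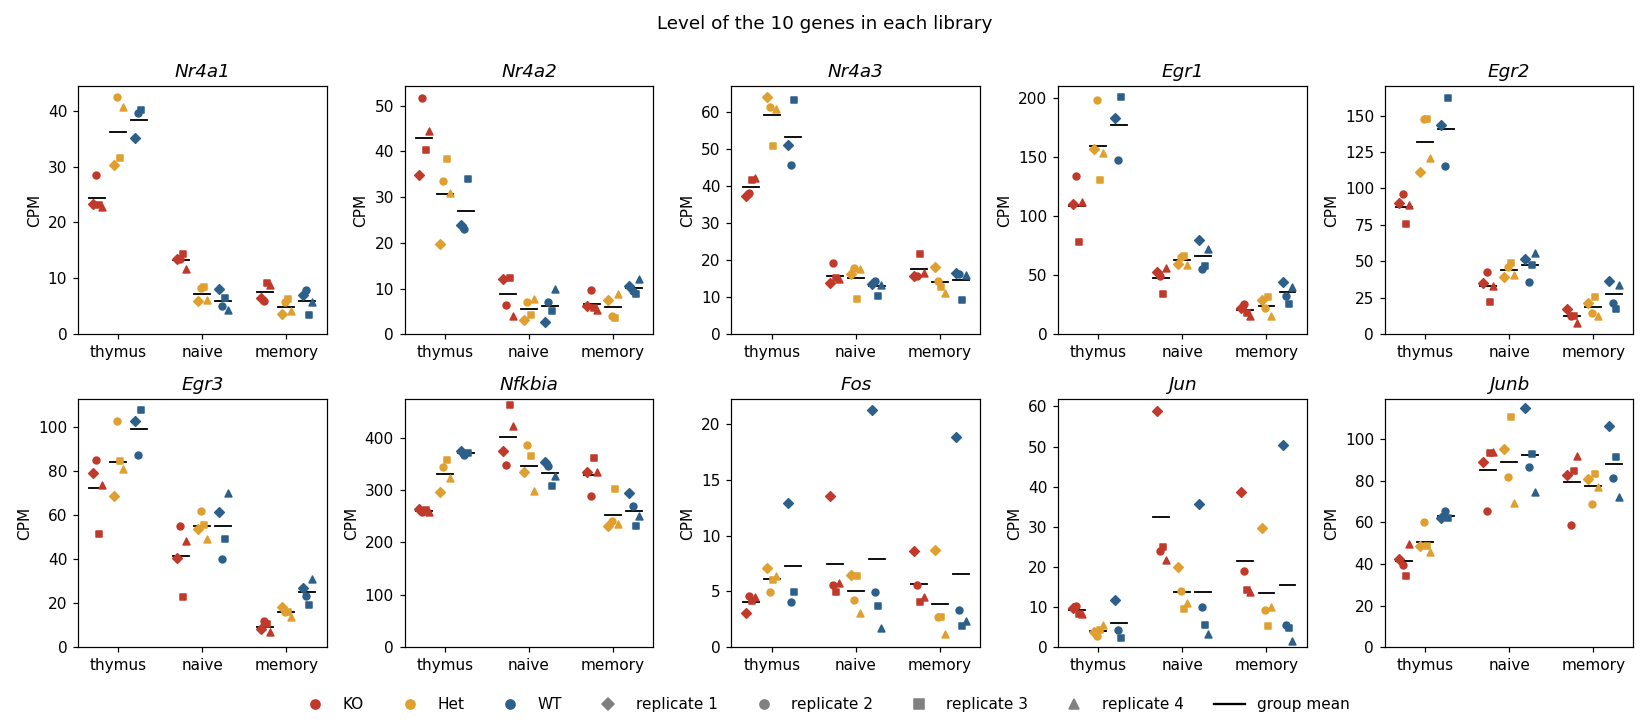
CPM of each of the 10 genes in every library (points, with the group mean as a line), for KO, Het and WT in thymus, naive and memory cells. Nr4a1 stood at 22.8 to 28.5 CPM in KO thymus below 35.2 to 40.2 CPM in WT thymus, and at 11.7 to 14.4 CPM in KO naive above 4.4 to 8.01 CPM in WT naive cells.

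Nr4a1 (chromosome 15, 101254269 to 101274795, plus strand, GRCm38) encodes NUR77, often used in mice as a reporter of antigen receptor signals. Its KO difference ran in opposite directions in thymus and in naive spleen cells. The KO thymus libraries had 23.3, 28.5, 23.1 and 22.8 CPM, against 35.2, 39.5 and 40.2 CPM in WT thymus. All KO values lay below all WT values, and Nr4a1 fell by 0.65 ± 0.17 on the log2 scale (SE; edgeR quasi-likelihood test, adjusted p = 0.00411). KO naive libraries had 13.4, 13.5, 14.4 and 11.7 CPM, against 8.01, 5.11, 6.53 and 4.4 CPM in WT naive cells. Here every KO value lay above every WT value, with a log2 difference of 1.18 ± 0.20 (adjusted p = 1.51e-05).

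In memory cells Nr4a1 had 6.54, 6.0, 9.09 and 8.74 CPM in KO libraries and 6.99, 7.94, 3.4 and 5.74 CPM in WT libraries. These ranges overlapped and the difference of 0.31 did not pass (adjusted p = 0.293). The KO against WT difference itself differed between naive and thymus cells, by 1.83 ± 0.26 (adjusted p = 9.24e-06), and this was called in all 25 alternative fits. By that test the KO minus WT log2 difference was higher in naive than in thymus cells for 2 members, Nr4a1 and Nfkbia, and lower for 0, where it was higher for 3.01% of all genes and lower for 3.33%. For Nr4a3 it was higher by 0.72, which did not pass (adjusted p = 0.0762) but passed in 3 of 25 alternative fits, DESeq2 among them (adjusted p = 0.0408). Between memory and naive cells the KO against WT difference of Nr4a1 changed by -0.87 ± 0.28, which did not pass (adjusted p = 0.117). For this change 0 members were called (0.67% of all genes higher, 1.12% lower). Nr4a1 passed without a filter on low counts (adjusted p = 0.0231) and without WT memory replicate 3 (adjusted p = 0.0188).

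Against Het libraries, which shared the KO libraries with the WT comparison, Nr4a1 fell by 0.57 ± 0.16 in KO thymus (adjusted p = 0.00729). It was higher by 0.88 ± 0.18 in KO naive cells (adjusted p = 0.000409) and by 0.64 ± 0.21 in KO memory cells (adjusted p = 0.0207). The memory call was lost in 6 of 18 alternative fits, with adjusted p up to 0.124, among them those without KO memory replicate 3 or 4, without Het memory replicate 1 or 4, and without replicate 1 in every group.

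Nr4a2 (chromosome 2, 57106830 to 57124003, minus strand), which encodes NURR1, had 34.8, 51.7, 40.4 and 44.4 CPM in KO thymus, against 23.8, 23.1 and 34.0 CPM in WT thymus. The KO values were all above the WT values, but the difference of 0.67 ± 0.31 did not pass (adjusted p = 0.149). It passed in a fit of only these libraries (adjusted p = 0.00381) and with a replicate block. In naive cells Nr4a2 averaged 8.74 ± 4.14 CPM in KO and 6.17 ± 3.1 CPM in WT libraries, and in memory cells 6.71 ± 2.07 CPM in KO and 10.2 ± 1.42 CPM in WT libraries (SD, n = 4 each). Neither passed, but the memory difference of -0.61 (adjusted p = 0.238) passed in 2 of 18 alternative fits, 1 of only these libraries (adjusted p = 0.0140) and 1 with a replicate block (adjusted p = 0.00873). Nr4a3 (chromosome 4, 48045153 to 48086447, plus strand), which encodes NOR1, had 37.2, 38.2, 41.5 and 42.1 CPM in KO thymus, against 64.0, 61.1, 50.6 and 60.5 CPM in Het thymus. It fell by 0.57 ± 0.15 in KO against Het thymus (adjusted p = 0.00706), a call lost only without replicate 1 in every group (adjusted p = 0.0835; 0.00026 to 0.0835 over the alternatives). Against WT thymus, with 51.0, 45.6 and 63.2 CPM, the ranges were apart too, but the difference of -0.42 ± 0.17 did not pass (adjusted p = 0.0764), and 4 of 17 alternative fits called it. In the spleen Nr4a3 was not called in either subset.

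The Egr genes had their highest group means in thymus and their lowest in memory cells in every genotype, and in memory cells all 3 were lower in KO than in WT libraries. EGR2 and EGR3 are known in mice for restraining T cell activation. Egr3 (chromosome 14, 70077203 to 70082614, plus strand) had 8.09, 12.1, 10.4 and 6.91 CPM in KO memory, 18.1, 16.2, 16.1 and 13.5 CPM in Het memory, and 26.7, 23.2, 19.2 and 30.8 CPM in WT memory cells. The 3 ranges did not overlap. Egr3 fell by 1.41 ± 0.24 in KO against WT memory cells (adjusted p = 4.26e-05), a call made in all 18 alternative fits, and by 0.76 ± 0.25 against Het memory cells (adjusted p = 0.03). The call against Het was lost in 6 of 18 alternative fits, those without KO replicate 1 or 4, without Het replicate 1 or 3, without replicate 1 in every group and without a filter on low counts (adjusted p up to 0.275).

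Egr2 (chromosome 10, 67535475 to 67542188, plus strand), whose CArG box is shown above, had 17.2, 12.5, 12.7 and 8.04 CPM in KO memory, against 36.8, 21.3, 17.1 and 33.9 CPM in WT memory cells. The highest KO value lay just above the lowest WT value. Egr2 fell by 1.08 ± 0.25 (adjusted p = 0.00145). Egr1 (chromosome 18, 34859823 to 34864984, plus strand) had 22.4, 25.5, 18.2 and 15.1 CPM in KO memory, against 43.9, 32.4, 25.4 and 40.2 CPM in WT memory cells. It fell by 0.80 ± 0.22 (adjusted p = 0.00751), a call lost without replicate 1 in every group (adjusted p = 0.092; 0.0009 to 0.092 over the alternatives). Against Het memory cells neither gene passed. Egr2 differed by -0.53 ± 0.26 (adjusted p = 0.161) and passed only with a replicate block (adjusted p = 0.00785). Egr1 differed by -0.24 ± 0.23 (adjusted p = 0.526) and passed in 0 of 18 alternative fits.

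Sums of some marker lists moved with the memory groups. Markers of B cells summed to 108 to 178 CPM in KO memory and 199.8 to 395 CPM in WT memory cells, those of natural killer cells to 276 to 356 CPM in KO and 166 to 193 CPM in WT cells, and those of CD4 T cells to 13.5 to 25.0 CPM in KO and 5.17 to 6.21 CPM in WT cells. None of these ranges overlapped. Ighm, which averaged 148 CPM over the 35 libraries, was the only 1 of 10 tested B cell markers called in KO memory cells. Its log2 difference was -1.07 ± 0.15 (adjusted p = 2.75e-06), where 9.32% of all genes fell and 12.8% rose. Nearly all of the natural killer list was Eomes (275 to 356 CPM in KO memory cells), and nearly all of the CD4 list was Zbtb7b (13.4 to 24.8 CPM). The sums of myeloid markers (10.5 to 20.3 CPM in KO, 13.6 to 25.0 CPM in WT) and CD8 T cell markers (1255 to 1545 CPM in KO, 1478 to 1627 CPM in WT) overlapped. Most of the CD8 sum was Lck, with a mean of 963 CPM over the 35 libraries. Of the 10 tested CD8 markers 4 fell and 0 rose in KO memory cells (9.32% and 12.8% of all genes). They were Trac (-1.37), Cd8b1 (-0.77), Cd8a (-0.75) and Trbc1 (-0.24). The part of all these markers in the memory results was not tested.

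In thymus Egr1 had 110, 133, 78.0 and 112 CPM in KO libraries, against 183, 147 and 200.2 CPM in WT libraries. Egr2 had 90.2, 96.3, 75.5 and 88.3 CPM in KO thymus, against 144, 115 and 162 CPM in WT thymus. Every KO value of both genes lay below every WT value, and Egr1 fell by 0.71 ± 0.21 (adjusted p = 0.0172) and Egr2 by 0.68 ± 0.23 (adjusted p = 0.0361). These were weaker calls: Egr1 lost its call in 6 of 17 alternative fits (adjusted p up to 0.295), among them those without WT replicate 1 or 3 or KO replicate 3, and Egr2 in 7 of 17 (up to 0.158), among them those without WT replicate 1 or 3 or KO replicate 1, 3 or 4. Against Het thymus, with 156, 198, 130 and 154 CPM, Egr1 fell by 0.56 ± 0.20 (adjusted p = 0.0437), a call lost in 9 of 18 alternative fits, among them those without KO replicate 1, 3 or 4 or Het replicate 1, 2 or 4. The KO and Het ranges of Egr1 overlapped. Egr2 had 111 to 148 CPM in Het thymus, above every KO value. Its difference from Het of -0.59 ± 0.21 did not pass (adjusted p = 0.052), but 7 of 18 alternative fits called it. Egr3 had 51.6 to 85.0 CPM in KO thymus and 87.2 to 108 CPM in WT thymus, a difference of -0.46 ± 0.21 that did not pass (adjusted p = 0.155). Against Het thymus, with 68.8 to 103 CPM, its ranges overlapped and the difference was -0.23 ± 0.20 (adjusted p = 0.498).

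In naive cells none of the Egr genes passed in the fit of all libraries. The differences were -0.45 for Egr1 (adjusted p = 0.146), -0.53 for Egr2 (adjusted p = 0.121) and -0.40 for Egr3 (adjusted p = 0.217). Egr1 passed in 2 of 18 alternative fits, with a sex covariate (-0.53, adjusted p = 0.0316) and with a replicate block (adjusted p = 0.000673), and Egr2 in 1, with libraries centred on their mean log level (-0.64, adjusted p = 0.0434). Sex, read from Xist and Y-linked counts, was female in 1 and male in 3 KO naive libraries, and female in 2 and male in 2 WT naive libraries. In naive cells the natural killer list summed to 116 to 181 CPM in KO and 45.5 to 66.8 CPM in WT libraries, and the B cell list to 192 to 509.6 CPM in KO and 199.8 to 347 CPM in WT libraries. Egr3 had 40.3, 55.2, 22.8 and 48.3 CPM in KO naive and 61.5, 39.9, 49.2 and 70.1 CPM in WT naive cells, so the groups overlapped. The KO effect on Egr3 was larger in memory than in naive cells by -1.01 ± 0.32, which did not pass (adjusted p = 0.13) except without KO naive replicate 3 (adjusted p = 0.0116), so a difference between the spleen subsets was not shown.

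**Figure D2:**
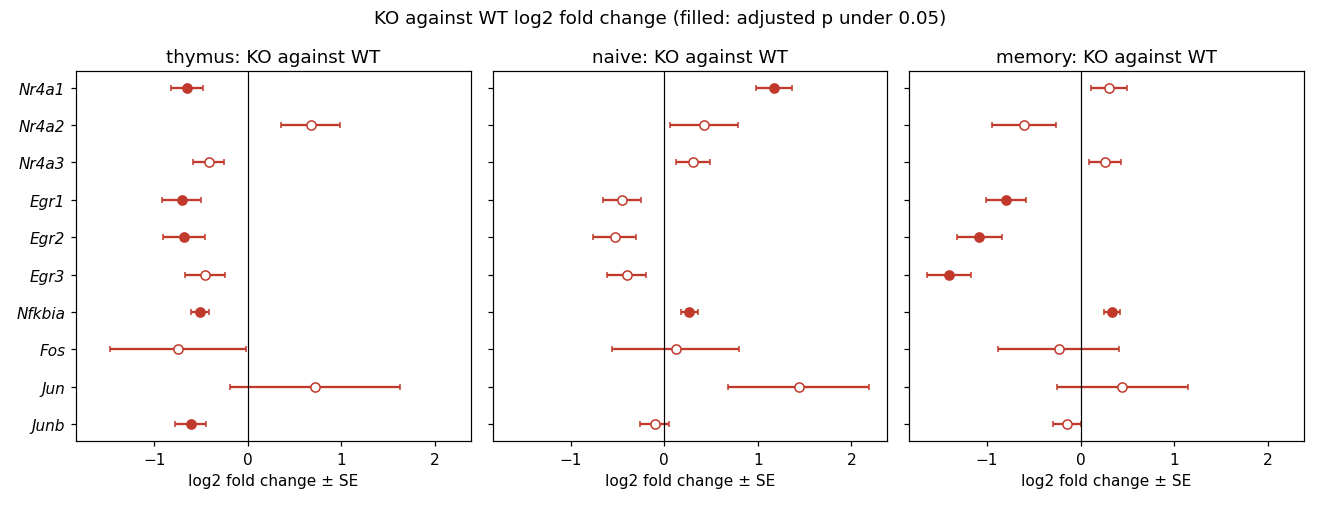
Log2 fold change of KO against WT libraries with its SE (bars) for each gene in thymus, naive and memory cells, on 1 scale, filled where the adjusted p is under 0.05. Nr4a1 lies at -0.65 in thymus and 1.18 in naive cells, Egr1, Egr2 and Egr3 lie below 0 in all 3 panels, and the bars of Fos and Jun are the widest.

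Nfkbia (chromosome 12, 55489410 to 55492647, minus strand) changed direction between thymus and naive cells as Nr4a1 did. Unlike Nr4a1, it was also called higher in KO than in WT memory cells. KO thymus libraries had 265, 258, 262 and 258 CPM, against 374, 367 and 371 CPM in WT thymus. Both groups were tight and lay apart, and Nfkbia fell by 0.51 ± 0.09 (adjusted p = 8.58e-05), a call made in all 17 alternative fits. In naive cells it had 374, 347, 462 and 422 CPM in KO libraries and 354, 346, 307 and 326 CPM in WT libraries, a higher level by 0.27 ± 0.09 (adjusted p = 0.0253). In memory cells it had 335, 288, 362 and 334 CPM in KO libraries and 294, 269, 230 and 249.95 CPM in WT libraries, higher by 0.34 ± 0.09 (adjusted p = 0.00344). The spleen ranges overlapped. Against Het libraries Nfkbia differed by -0.34 ± 0.09 in thymus (adjusted p = 0.00414) and by 0.39 ± 0.09 in memory cells (adjusted p = 0.000976). Both calls against Het were made in all 18 alternative fits. In naive cells the difference from Het of 0.21 ± 0.09 did not pass (adjusted p = 0.0928), and 2 of 18 alternative fits called it.

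The naive call of Nfkbia against WT was lost in 5 of 18 alternative fits, those without WT replicate 3 or 4 or KO replicate 3 or 4 (adjusted p up to 0.153) and the one that centred libraries on their mean log level (adjusted p = 0.233). That centring also ended the memory call against WT (adjusted p = 0.0559). The naive minus thymus change of the KO difference, 0.78 ± 0.13, was called in all 25 alternative fits (adjusted p = 0.000119 in the fit reported).

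Of 20 other tested NF-kB subunits and feedback genes, 7 fell and 0 rose in KO thymus, where 6.77% of all tested genes fell and 11.9% rose, with a median of -0.31 beside 0.02 over all genes. Birc2 (-0.53), Tnip1 (-0.35), Relb (-0.62) and Rel (-0.60) had the lowest adjusted p of these, and Relb and Rel encode NF-kB subunits. In KO naive cells 3 fell and 1 rose (7.11% and 11.1% of all genes). Those that fell were Tnip1 (-0.33, adjusted p = 0.00107), Birc2 (-0.32) and Rel (-0.44). Tnfaip3, like Nfkbia a feedback inhibitor of NF-kB, was higher by 0.57 ± 0.13 (adjusted p = 0.00111). In KO memory cells Tnip1 alone was called, at -0.31 (adjusted p = 0.00143), where 9.32% of all genes fell and 12.8% rose.

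Junb (chromosome 8, 84974484 to 84978718, minus strand) had 42.3, 39.7, 34.2 and 49.8 CPM in KO thymus, against 62.3, 65.3 and 62.2 CPM in WT thymus. It fell by 0.61 ± 0.17 against WT thymus (adjusted p = 0.0091). This call was lost only without replicate 1 in every group (adjusted p = 0.061, with 9.8e-05 to 0.061 over the alternatives). The fall was not shown against Het thymus, where the ranges overlapped. That difference of -0.30 ± 0.16 did not pass (adjusted p = 0.206) and was called in 0 of 18 alternative fits. Every Het thymus value lay below every WT thymus value, but the difference of -0.32 ± 0.17 did not pass (adjusted p = 0.809). In the spleen Junb averaged 85.4 ± 13.5 CPM in KO naive and 92.4 ± 17.0 CPM in WT naive cells, and 79.7 ± 14.4 CPM in KO memory and 87.9 ± 14.5 CPM in WT memory cells (SD, n = 4 each), with no call. Junb shares 173 exon bases with Prdx2 on the other strand, which had 2290 counts in all, and the strand setting of the counting is not given in the sources used here.

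Jun (chromosome 4, 95049034 to 95052222, minus strand) and Fos (chromosome 12, 85473890 to 85477273, plus strand) were set apart by replicate 1. Jun had 58.9, 23.9, 25.0 and 21.6 CPM in KO naive replicates 1 to 4, against 35.7, 10.1, 5.4 and 3.24 CPM in WT naive replicates 1 to 4. In memory cells Jun had 38.6, 19.0, 14.2 and 13.8 CPM in KO libraries and 50.4, 5.54, 4.72 and 1.52 CPM in WT libraries. Replicate 1 was the highest library in each of these groups, as it was in Het naive (19.9 CPM), Het memory (29.7 CPM) and WT thymus (11.9 CPM) but not in KO thymus (9.78 CPM) or Het thymus (3.67 CPM). Over all libraries none of the Jun differences between KO and WT passed: 0.72 ± 0.91 (thymus), 1.44 ± 0.75 (naive) and 0.45 ± 0.70 (memory; adjusted p = 0.677, 0.22 and 0.737).

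Without replicate 1 in every group, a comparison chosen after the data had been seen, Jun was higher in KO than in WT libraries in every subset. The difference was 1.45 ± 0.44 in thymus (adjusted p = 0.0368; 0.0368 to 0.902 over the alternatives). It was 1.93 ± 0.37 in naive cells (adjusted p = 0.000923; up to 0.515) and 1.998 ± 0.39 in memory cells (adjusted p = 0.000878; up to 0.992). The thymus call rests on few libraries, since WT thymus then kept only replicates 2 and 3 (4.18 and 2.16 CPM). Against Het libraries the same fit gave 1.09 ± 0.38 (thymus), 1.02 ± 0.34 (naive) and 0.95 ± 0.36 (memory). None of these differences from Het passed (adjusted p = 0.0675, 0.0532 and 0.0921). The remaining libraries did not overlap in either spleen subset: 21.6 to 25.0 CPM in KO and 3.24 to 10.1 CPM in WT naive cells, and 13.8 to 19.0 CPM in KO and 1.52 to 5.54 CPM in WT memory cells. Leaving out WT naive replicate 1 alone gave 2.40 (adjusted p = 0.0452), and leaving out WT memory replicate 1 alone gave 2.47 (adjusted p = 0.0151). With all libraries kept, every KO value of Jun lay above every Het value in thymus and naive cells. The difference from Het did not pass in thymus, naive or memory cells (adjusted p = 0.397, 0.283 and 0.62). It passed in all of them with a replicate block (adjusted p = 0.000467, 6.1e-07 and 0.00246), and in thymus with only the libraries compared (adjusted p = 0.000266).

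Fos had few reads, 11 to 242 per library. It had 13.5, 5.59, 4.95 and 5.72 CPM in KO naive and 21.2, 4.98, 3.69 and 1.67 CPM in WT naive cells, and 8.62, 5.53, 4.03 and 4.51 CPM in KO memory and 18.8, 3.32, 1.87 and 2.33 CPM in WT memory cells. The memory difference was -0.23 ± 0.65 (adjusted p = 0.864) and turned to 0.87 ± 0.31 without replicate 1 in every group (adjusted p = 0.0456; 0.0456 to 1.0 over the alternatives). In KO thymus Fos had 3.03 to 4.61 CPM, against 4.07 to 12.9 CPM in WT thymus, with no call.

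The heat shock genes Hspa1a and Hspa1b, near-identical copies between which reads may be split, moved with the same libraries in part. Hspa1b had 83.5, 19.5, 135 and 6.3 CPM in KO naive and 210, 30.9, 25.5 and 2.3 CPM in WT naive replicates 1 to 4. In memory cells it had 56.3, 14.3, 127 and 7.75 CPM in KO libraries and 173, 33.0, 40.4 and 0.627 CPM in WT libraries. WT replicate 1 was thus high for Hspa1b as for Jun, while KO replicate 3 was high for Hspa1b and not for Jun. Their part in the Jun and Fos values was not tested.

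**Figure D3:**
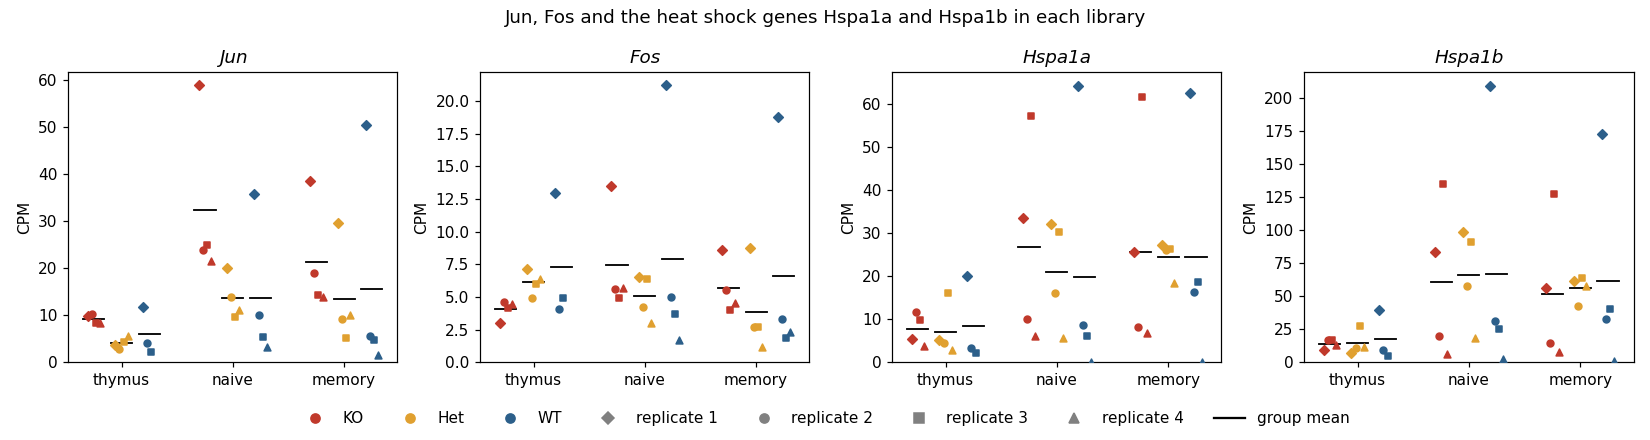
CPM of Jun, Fos, Hspa1a and Hspa1b in each library, by subset and genotype, with the marker shape giving the replicate number and the line the group mean. Replicate 1 (diamonds) is the highest Jun library in all 6 spleen groups, up to 58.9 CPM in KO naive and 50.4 CPM in WT memory cells.

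Of the 6 other tested AP-1 genes, 3 rose in KO thymus, 2 in KO naive and 2 in KO memory cells, beside 11.9%, 11.1% and 12.8% of all genes, and 0 fell (6.77%, 7.11% and 9.32%). Jdp2, a repressor that binds AP-1 sites, was higher in KO by 2.89 ± 0.42 (thymus), 3.64 ± 0.37 (naive) and 3.09 ± 0.28 (memory; adjusted p = 1.12e-06, 3.91e-10 and 1.22e-11). Fosl2 was higher by 0.73, 0.75 and 0.85, and Batf by 0.47 in thymus. The median of the list was 0.35 (thymus), 0.54 (naive) and -0.11 (memory), beside 0.02, 0.00 and 0.01 over all genes.

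Set against the whole table, 5 of the 10 members fell and 0 rose in KO against WT thymus, where 6.77% of all tested genes fell and 11.9% rose. In KO naive cells 2 rose and 0 fell (11.1% and 7.11% of all genes), and in KO memory cells 1 rose and 3 fell (12.8% and 9.32%). The members had a median log2 difference of -0.56 (thymus), 0.20 (naive) and -0.19 (memory). KO against Het libraries gave 4 lower and 0 higher members in thymus (7.28% of all genes lower, 11.9% higher), 1 higher and 0 lower in naive cells (10.5% higher, 6.5% lower), and 2 higher and 1 lower in memory cells (11.6% higher, 8.59% lower). In the naive comparison equally numbered KO and Het libraries deviated together. With the replicate number as a block Jun was higher in KO naive cells by 1.19 ± 0.12 (adjusted p = 6.1e-07; up to 0.605 over the alternatives), against 1.25 ± 0.72 without it (adjusted p = 0.283).

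Het against WT libraries gave 0 called members in thymus, naive and memory cells by edgeR and 0 by DESeq2. At an unadjusted p under 0.05 there were 0, 0 and 4 members, out of 636, 275 and 527 such genes. Over the whole table edgeR called 0, 0 and 1 gene, which is 0.00971% in memory cells. For Egr3 the Het memory mean of 16.0 ± 1.88 CPM lay between the KO mean of 9.37 ± 2.32 CPM and the WT mean of 25.0 ± 4.96 CPM (SD, n = 4 each).

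Other immediate early genes did not share a direction. Of 23 tested, 4 rose and 5 fell in KO thymus (11.9% of all genes rose and 6.77% fell), 5 rose and 0 fell in KO naive (11.1% and 7.11%), and 5 rose and 2 fell in KO memory cells (12.8% and 9.32%). The share that fell in memory cells was close to that of all genes. Pim1, a kinase gene, was higher in all 3 (1.12, 0.65 and 0.62). Dusp6 (-0.90), which encodes a phosphatase of ERK, and the mRNA decay genes Zfp36 (-0.52) and Zfp36l1 (-0.54) fell in KO thymus. Rgs2, a regulator of G protein signalling, was higher in KO naive (1.58 ± 0.22) and KO memory cells (1.67 ± 0.20), as was Dusp5, another ERK phosphatase gene (1.17 and 0.90). Irf4 was higher in KO naive cells by 1.36 ± 0.32 (adjusted p = 0.00144) and Klf4 in KO memory cells by 2.57 ± 0.55 (adjusted p = 0.000419).

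Of 10 tested genes linked to receptor signal strength, 4 fell and 0 rose in KO thymus (6.77% of all genes fell and 11.9% rose), 3 fell and 2 rose in KO naive (7.11% and 11.1%), and 5 fell and 0 rose in KO memory cells (9.32% and 12.8%). Cd5, whose surface level follows the strength of antigen receptor signals, fell in all 3, with log2 differences of -0.97 ± 0.14 (thymus), -0.99 ± 0.15 (naive) and -1.81 ± 0.14 (memory). The log2 difference of Cd6 was -0.60 in thymus and -0.75 in naive cells, and that of Izumo1r was -1.65, -1.30 and -2.63 (thymus, naive, memory), all called, as was Cd6 in memory cells. The 2 that rose in KO naive cells were Itm2a, by 0.93 ± 0.16 (adjusted p = 4.86e-05), and Irf4, by 1.36 ± 0.32. Of 17 tested partners and targets of Egr and Nr4a proteins, 4 rose and 3 fell in KO thymus (11.9% and 6.77% of all genes). In each KO spleen subset 3 rose and 3 fell (11.1% and 7.11% of all genes in naive, 12.8% and 9.32% in memory cells). Nrgn was higher by 4.55 ± 0.86 in KO thymus. The log2 difference of Tox was -0.50 in KO thymus and -0.44 in KO memory cells, both called. Rxra, a partner receptor of NR4A proteins, was higher by 1.37 ± 0.16 in KO thymus and 0.43 ± 0.15 in KO naive cells. Nab1, a corepressor of EGR proteins, was higher by 0.44 in KO thymus. Bcl2l11, a cell death gene, was higher by 1.15 in KO naive and 1.00 in KO memory cells, and Cblb and Dgka, which restrain receptor signals and are known Egr targets, fell in both, with -0.48 and -0.41 in KO naive and -0.73 and -0.63 in KO memory cells.

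Of 30 tested genes upstream of the immediate early genes, 0 rose and 2 fell in KO thymus (Mef2d -0.28, Elk4 -0.32), beside 11.9% and 6.77% of all genes. In KO naive cells 5 rose and 1 fell (11.1% and 7.11%), and in KO memory cells 3 rose and 3 fell (12.8% and 9.32%). The shares of this list that fell in thymus and that rose or fell in memory cells were close to those of all genes, so these counts show nothing particular to the list. Within it, Mapk3, which encodes the kinase ERK1, was higher by 0.29 in naive and 0.51 in memory cells. Of 11 tested heat shock and handling genes, 6 rose and 0 fell in KO thymus (11.9% and 6.77% of all genes), 0 were called in KO naive (11.1% rose and 7.11% fell), and 0 rose and 1 fell in KO memory cells (12.8% and 9.32%), where the share that fell was close to that of all genes. The summed level of that list was 5455 to 7078 CPM in KO thymus and 4441 to 5452 CPM in WT thymus. Markers of double positive thymocytes summed to 19.4 to 32.9 CPM in KO thymus and 11.4 to 19.2 CPM in WT thymus, and markers of B cells to 99.6 to 141 CPM in KO thymus and 82.4 to 102 CPM in WT thymus. Those of natural killer cells, all Eomes, summed to 38.3 to 54.9 CPM in KO thymus and 6.63 to 11.3 CPM in WT thymus, and those of myeloid cells to 0.854 to 2.34 CPM in KO thymus and 0.0862 to 0.814 CPM in WT thymus. Their part in the thymus results was not tested. In these bulk samples fewer cells of a type and less RNA per cell cannot be told apart.

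Naive spleen cells had less of most members than thymocytes. In naive against thymus cells 6 members fell in each genotype, the 3 Nr4a and the 3 Egr genes, where 21.7% of all genes were lower in KO, 19.7% in Het and 16.9% in WT cells. The log2 difference of Nr4a1 was -0.89 ± 0.17 in KO, -2.34 ± 0.18 in Het and -2.71 ± 0.19 in WT cells. The log2 differences of Nr4a2 were -2.30 in KO, -2.46 in Het and -2.06 in WT cells, and those of Nr4a3 were -1.34, -1.94 and -2.06 in the same order. Junb was higher in naive cells by 1.04 ± 0.16 in KO, 0.81 ± 0.15 in Het and 0.54 ± 0.17 in WT cells. In KO cells Nfkbia (0.62 ± 0.09) and Jun (1.83 ± 0.74, adjusted p = 0.0455) were higher too, so that 3 members were called higher in KO, 1 in Het and 1 in WT cells, beside 22.4%, 19.8% and 15.3% of all genes. The naive minus thymus change of the KO against WT difference was not called for Jun in any of 25 alternative fits (adjusted p = 0.501 to 1.0). In Het cells its difference was 1.75 ± 0.84, with every naive library above every thymus library; it did not pass (adjusted p = 0.103), but it did in a fit of these libraries alone (adjusted p = 3.5e-05), with a replicate block (adjusted p = 0.000101) and without replicate 1 in every group (adjusted p = 0.00663). In WT cells it was 1.11 ± 0.93, with overlapping ranges (adjusted p = 0.397), and passed with a replicate block (adjusted p = 7.07e-06). The KO call of Jun was lost in 7 of 18 alternative fits, those without any 1 of the 4 KO thymus libraries, without KO naive replicate 1 or 3, or without a filter on low counts (adjusted p up to 0.171). The WT call of Junb was lost without WT naive replicate 1 (adjusted p = 0.0629) and without replicate 1 in every group (adjusted p = 0.187). The Het call of Egr3 (-0.62 ± 0.20) was lost without Het thymus replicate 2 (adjusted p = 0.0663) and without replicate 1 in every group (adjusted p = 0.0532), and its KO call (-0.79) with only the libraries compared (adjusted p = 0.0661).

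Memory cells had less of the Egr genes than naive cells. In memory against naive cells the log2 difference of Egr3 was -2.14 ± 0.23 in KO, -1.78 ± 0.23 in Het and -1.13 ± 0.22 in WT cells. In the same order it was -1.23, -1.36 and -0.88 for Egr1, -1.35, -1.22 and -0.79 for Egr2, and -0.28, -0.46 and -0.35 for Nfkbia. These 4 genes were called in each genotype, and Nr4a1 was called in KO cells as well (-0.81 ± 0.18, adjusted p = 0.000886), which made 5 lower members in KO and 4 each in Het and WT cells, beside 8.61%, 8.57% and 7.38% of all genes. In Het cells Nr4a1 differed by -0.57 ± 0.21, which did not pass (adjusted p = 0.0578) but passed in 6 of 18 alternative fits (adjusted p = 0.0209 to 0.234 over the alternatives), DESeq2 among them (adjusted p = 0.0376), which called 5 members in Het cells. In WT cells it differed by 0.06 (adjusted p = 0.91). Of the members 0 were higher, where 8.69% of all genes were higher in KO, 8.31% in Het and 7.68% in WT cells. The KO call of Nfkbia was lost without KO naive replicate 3 or 4 or KO memory replicate 2 (adjusted p up to 0.105). The WT call of Egr2 was lost in 4 of 18 alternative fits, without WT naive replicate 4, without WT memory replicate 2 or 3, and with only the libraries compared (adjusted p up to 0.117). With the replicate number as a block, since equally numbered WT naive and memory libraries deviated together, Nr4a2 was higher in WT memory cells by 0.70 ± 0.17 (adjusted p = 0.00122; up to 0.519 over the alternatives), against 0.66 ± 0.36 without it (adjusted p = 0.259).

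**Figure D4:**
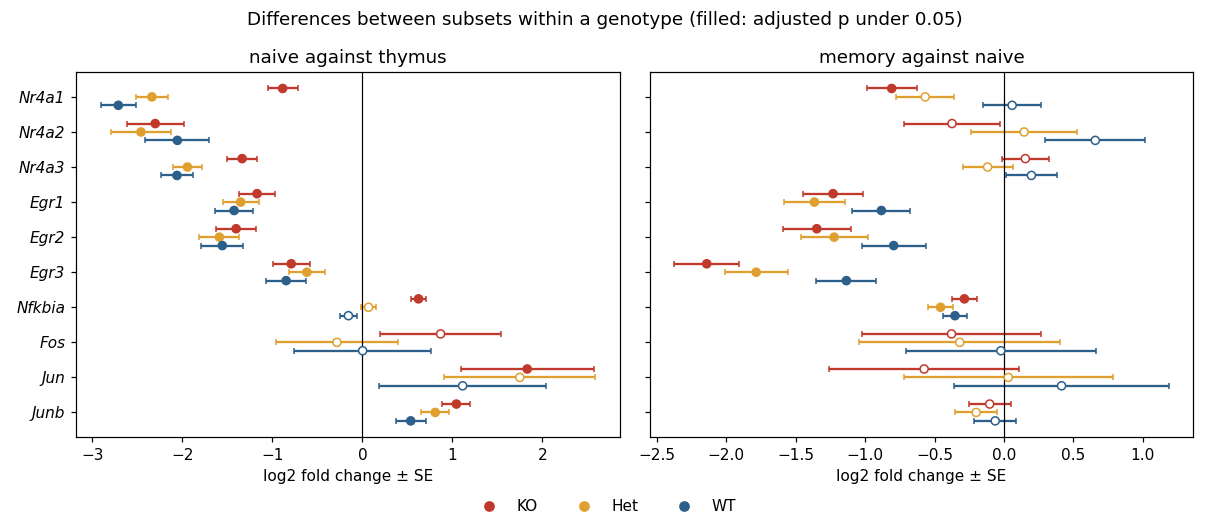
Log2 fold changes with SE for naive against thymus and memory against naive cells in KO, Het and WT. Nr4a1, Nr4a2, Nr4a3 and the Egr genes lie below 0 for naive against thymus in every genotype, and Egr3 lies at -2.14 in KO and -1.13 in WT memory against naive cells.

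The order of the 9 group means followed subset for the Egr genes and genotype within subset. Egr1, Egr2 and Egr3 each had KO below Het below WT in all 3 subsets, though most neighbours in that order overlapped. The means of Egr1 lay between 20.3 CPM in KO memory and 177 CPM in WT thymus. The means of Nr4a1 lay between 4.95 CPM in Het memory cells and 38.3 CPM in WT thymus, with KO naive (13.2 CPM) apart from the groups above and below it. Nfkbia had its highest mean in KO naive cells (401 CPM), and its lowest in Het memory cells (252 CPM), with KO thymus (261 CPM) close to it.

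Within groups, libraries deviated from their group mean together for some pairs of genes. Across the 35 libraries, and as a description only since libraries share preparation and depth, Pearson r of the deviations of log2 CPM was 0.81 for Egr1 and Egr2, 0.76 for Egr1 and Egr3 and 0.72 for Egr2 and Egr3. It was 0.86 for Fos and Jun, 0.72 for Jun and Hspa1b and 0.57 for Nr4a1 and Nfkbia, while Nr4a1 and Nr4a2 had -0.26. Among the 3 Nr4a genes the highest such r was 0.20.

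**Figure D5:**
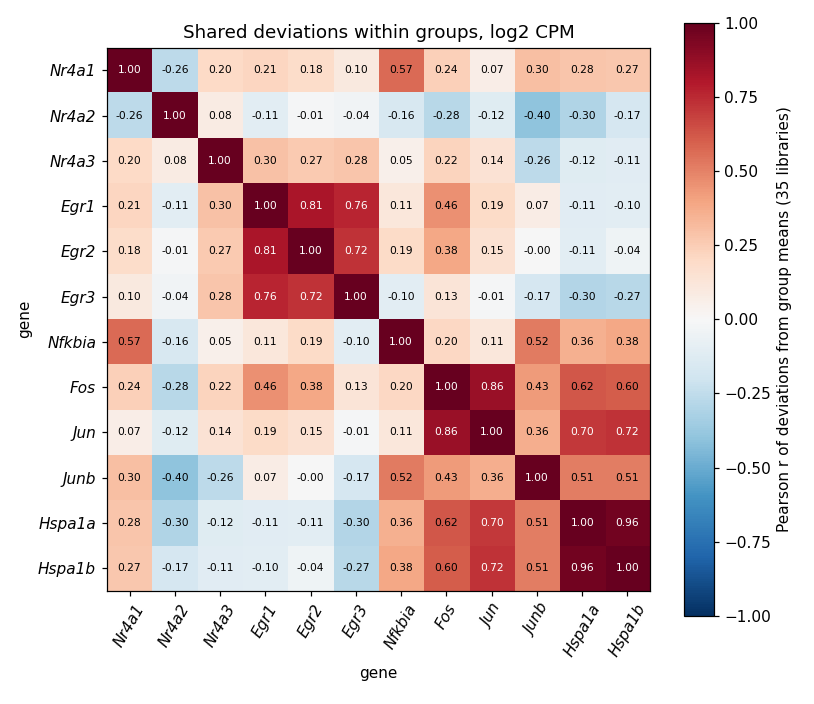
Pearson r between genes of the deviations of log2 CPM from the group means over 35 libraries. The Egr genes (0.72 to 0.81) and Fos with Jun (0.86) form the darkest cells among the members.

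The genes whose log2 CPM followed each member most closely over the 35 libraries came mostly from outside the 10 members. For Nr4a1 they were Cux1 (r = 0.96), Plxnd1 (0.95) and Cul7 (0.94). For Nr4a2 they were Blmh (0.92), Memo1 (0.91) and Hmgn2 (0.90), and for Nr4a3 Nono (0.93), Colq (0.93) and Fmnl3 (0.93). Egr1 was closest to Egr2 (0.98), Tox (0.96) and Gsn (0.96), Egr2 to Egr1, Tox (0.97) and Timp2 (0.96), and Egr3 to Rgcc (0.96), Gpr83 (0.95) and Egr1 (0.95). Nfkbia (Insr 0.79, Ssbp2 0.76, Epc1 0.75), Fos (Polr2a 0.68, Dusp1 0.63, Jun 0.61) and Jun (Irs2 0.71, Hspa1a 0.69, Tcf7 0.69) had looser neighbours, and Junb had Sec24c (0.86) and Rabac1 (0.84).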

How the data were processed

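RNA sequencing counts of 35 libraries of sorted CD8 T cells were used. The authors deposited raw read counts per Ensembl gene, not normalized. Per the labels' protocols, RNA was prepared with Trizol, made into stranded mRNA libraries and sequenced as single reads. The submitters' processing notes name the tools TopHat2 2.1.0, TopHat and HTSeq 0.9.1, with GRCm38 and mm10 as builds. Annotation release and strand setting are not given in the sources used here. Symbols and positions are from GENCODE M21.

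Genes were filtered by filterByExpr (10296 kept), scaled by TMM (factors 0.927 to 1.07) and tested in 1 fit of all libraries with edgeR 4.0.16 (R 4.3.3; robust quasi-likelihood F test, two-sided, 26 residual degrees of freedom). The Benjamini-Hochberg adjustment ran over the 10296 genes, and an adjusted p under 0.05 made a call. Log2 fold changes are ± SE (their size over the square root of F) and CPM means ± SD. The fit was tested on simulated data. Alternatives were RLE scaling, centring on the mean log level, no filter, a stricter filter (CPM of 1 in 4 libraries), DESeq2 1.42.0, non-robust estimates, a fit limited to the libraries compared, a replicate block, a sex covariate (read from Xist and Y-linked counts), each replicate left out, and all replicates 1 left out (chosen after seeing the data).

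The members and gene lists were chosen with earlier results of these data known. All 10 members are named, with up to 4 list genes of lowest adjusted p per KO against WT comparison, and the 3 genes nearest to each member by Pearson r of log2 CPM (prior count 2). Some results are not reported here. Equally numbered libraries correlated over 0.1 in every pair only for KO against Het naive (0.144 to 0.262) and memory against naive WT libraries (0.206 to 0.310), a pairing read from the data. Depth was 4809509 to 16879636 counts, so genes with few reads such as Fos are imprecise.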

Additional observations from a re-analysis of the deposited data

Results flagged for a closer look

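In 10 of 80 checks of a gene in a group of 4 libraries, 1 library stood far from the other 3, where chance gives about 1 in 20. Replicate 1 was the highest for Jun in KO naive (58.9 CPM) and WT memory cells (50.4 CPM), and for Fos in KO naive (13.5 CPM), WT naive (21.2 CPM) and WT memory cells (18.8 CPM). Nr4a1 was highest in KO thymus replicate 2 (28.5 CPM). Nr4a3 was highest in KO memory replicate 3 (21.7 CPM) and lowest in WT memory replicate 3 (9.11 CPM). Nfkbia was highest in Het memory replicate 3 (303 CPM), and Junb lowest in KO naive replicate 2 (65.4 CPM).

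The KO against WT difference was larger in naive than in thymus cells by 1.83 for Nr4a1 and by 0.78 for Nfkbia (log2), as tested by the interaction term. For both genes it was below 0 in thymus and above 0 in naive cells.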

How the results depend on the processing

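The number of members called changed by over 1.5 times in these settings. KO against WT thymus had 3 called without replicate 1 in every group, beside 5. KO against Het thymus had 7 with a replicate block and 2 without replicate 1 in every group, beside 4. KO against Het naive had 2 with only the libraries compared and 2 with the block, beside 1, and KO against Het memory had 5 with the block, beside 3. The memory minus naive change of the KO against WT difference had 1 without a filter on low counts, beside 0 (3 members at an unadjusted p under 0.05, and 0 by DESeq2). With 1 replicate left out, the count ran from 3 to 5 for KO against WT thymus, 1 to 3 for KO against WT naive, 1 to 2 for KO against Het naive, 1 to 3 for KO against Het memory and 0 to 1 for the memory minus naive change.

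Signs that turned were of values without a call in the fit of all libraries. Fos in KO against WT memory cells became 0.10 with the block and 0.87 without replicate 1 in every group, where it was called (adjusted p = 0.0456). It ran from -0.54 to 1.18 with 1 replicate left out. In naive cells Fos became -0.0080 with mean log centring, -0.049 with a sex covariate and -0.068 with DESeq2, and ran from -0.35 to 1.13 with 1 replicate left out. With 1 replicate left out, Jun in memory cells ran from -0.025 to 2.47 and Junb in naive cells from -0.21 to 0.0023. The causes were not tested.

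Centring on the mean log level moved the median of all genes in KO against WT to -0.09 (thymus), -0.11 (naive) and -0.10 (memory), where it was 0.02, 0.00 and 0.01. Higher and lower calls were then 886 and 1342 in thymus, 886 and 1612 in naive and 1019 and 1812 in memory cells, beside 1222 and 697, 1147 and 732, and 1323 and 960. Where equally numbered libraries were not paired, the block is only such a setting, and every library correlated best with its own number in memory against naive KO and naive against thymus KO libraries (8 of 8 each) but not in KO against WT thymus (2 of 6).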
